A study of Mus musculus with 267 samples.

Results

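The Toll-like receptor genes of the mouse were followed across every chromatin measurement of the series: Tlr1, Tlr2, Tlr3, Tlr4, Tlr5, Tlr6, Tlr7, Tlr8, Tlr9 and Tlr13, which are 10 of the 21951 protein-coding genes of the annotation (GENCODE vM21, genome build mm10). Regions and peaks were assigned to a gene when their centre lay within 25 kb of its start. This gave 250 of 305626 regions over 5 strain tables, 61 of 77955 regions of a C57BL/6J time course, 26 of 30675 EGR2 sites, 3 of 4677 EGR2 sites measured by Egr2 genotype, and 2024 of 1958714 peaks in 54 lists of reproducible transcription factor peaks. The cells were bone marrow-derived macrophages (BMDMs), cultured from bone marrow with macrophage colony-stimulating factor (M-CSF), from female mice of 8 to 12 weeks. The strains, shortened below to their first letters, were C57BL/6J, the reference strain of mm10 (C57), BALB/cJ (BALB), SPRET/EiJ (SPRET), PWK/PhJ (PWK) and NOD/ShiLtJ (NOD), and cells of each were left untreated (basal) or given mouse recombinant IL-4 at 20 ng/mL for 24 h. C57 cells were also sampled after 1 and 6 h of IL-4. Cells from Egr2 fl/fl mice and from LyzM-Cre Egr2 fl/fl mice, both basal and after 24 h of IL-4, completed the set. All of these Egr2 animals carried the floxed alleles, and the Cre was driven by the lysozyme M gene, which is active in myeloid cells and not only in macrophages.

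Toll-like receptors recognise molecules of microbes and pass the signal through the adaptors MyD88 and TRIF to NF-kB and interferon regulatory factors. The receptors for lipoproteins, lipopolysaccharide and flagellin sit at the cell surface, and those for nucleic acids sit in endosomes. IL-4 acts through STAT6 and turns macrophages towards a programme that is often set against the inflammatory programme the Toll-like receptors start.

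Chromatin immunoprecipitation followed by sequencing (ChIP-seq) gave H3K27ac, a mark of active promoters and enhancers, H3K4me2, a mark of promoters and enhancers, H3K4me3, a mark of promoters, and RNA polymerase II (Pol II). Values are normalized tags, the reads in a region scaled to a library of 10000000, and all histone and Pol II regions were 1000 bp wide, so that levels of different genes can be set side by side. Distances carry a minus sign upstream of a gene's start and none downstream. A promoter region is the one with its centre nearest the start and within 1 kb of it.

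The members lie on 7 chromosomes. Tlr1 (chr5:64924679-64933563, minus strand) and Tlr6 (chr5:64952031-64960097, minus strand) are neighbours, as are Tlr7 (chrX:167304929-167330558, minus strand) and Tlr8 (chrX:167242696-167264329, minus strand). The others are Tlr2 (chr3:83836272-83841767, minus strand), Tlr3 (chr8:45395665-45411080, minus strand), Tlr4 (chr4:66827584-66930284, plus strand), Tlr5 (chr1:182954788-182976044, plus strand), Tlr9 (chr9:106222598-106226883, plus strand) and Tlr13 (chrX:106143204-106160493, plus strand). Of these genes, 8 had an entry in the RefSeq promoter table of GRCm38.p6, and Tlr4 and Tlr7 had none.

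The promoters of the genes with the strongest losses of H3K27ac or Pol II (Tlr2 at chr3:83841559-83841858 on the minus strand, Tlr5 at chr1:182954538-182954837 on the plus strand and Tlr9 at chr9:106222348-106222647 on the plus strand), the promoter of Tlr3 (chr8:45410331-45410630, minus strand) and the EGR2 site in the Tlr1 intron that was measured by Egr2 genotype (chr5:64932223-64932522, plus strand) are given 5′ to 3′, with matches to motifs of factors measured here or known at these genes in capitals.
Tlr2 promoter: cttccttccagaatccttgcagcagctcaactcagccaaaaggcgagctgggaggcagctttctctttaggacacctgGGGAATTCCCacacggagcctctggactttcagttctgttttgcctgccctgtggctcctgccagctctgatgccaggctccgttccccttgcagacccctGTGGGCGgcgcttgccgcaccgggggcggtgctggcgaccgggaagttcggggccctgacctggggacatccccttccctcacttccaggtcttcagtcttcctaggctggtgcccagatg
Tlr5 promoter: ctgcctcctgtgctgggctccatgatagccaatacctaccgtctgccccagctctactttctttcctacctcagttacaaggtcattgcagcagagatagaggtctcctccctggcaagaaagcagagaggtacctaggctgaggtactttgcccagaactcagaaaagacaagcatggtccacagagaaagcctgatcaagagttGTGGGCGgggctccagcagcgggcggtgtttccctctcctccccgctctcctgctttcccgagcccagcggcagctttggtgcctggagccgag
Tlr9 promoter: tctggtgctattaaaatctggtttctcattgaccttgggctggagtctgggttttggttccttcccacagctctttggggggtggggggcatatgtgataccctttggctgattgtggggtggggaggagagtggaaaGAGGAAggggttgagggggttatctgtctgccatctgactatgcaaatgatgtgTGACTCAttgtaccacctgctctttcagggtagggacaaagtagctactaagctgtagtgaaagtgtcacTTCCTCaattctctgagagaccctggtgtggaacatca
Tlr3 promoter: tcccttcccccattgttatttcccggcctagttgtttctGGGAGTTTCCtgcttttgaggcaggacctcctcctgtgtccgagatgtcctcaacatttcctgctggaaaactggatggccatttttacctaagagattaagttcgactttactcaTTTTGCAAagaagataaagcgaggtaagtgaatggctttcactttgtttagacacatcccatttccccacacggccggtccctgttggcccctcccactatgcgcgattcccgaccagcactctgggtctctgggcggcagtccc
Tlr1 EGR2 site: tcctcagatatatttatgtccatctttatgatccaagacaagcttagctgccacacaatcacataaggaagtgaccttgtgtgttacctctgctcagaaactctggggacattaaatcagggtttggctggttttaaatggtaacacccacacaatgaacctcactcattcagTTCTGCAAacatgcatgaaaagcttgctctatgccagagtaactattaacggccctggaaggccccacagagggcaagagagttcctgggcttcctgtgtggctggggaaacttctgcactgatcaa
The motifs were searched on both strands as the letters GAGGAA (PU.1), GTGGGCG (EGR), TTC and GAA with any 4 bases between them (STAT6), TTGCNNAA (C/EBP), TGANTCA (AP-1) and GGGA, TT and CC each set apart by any base (NF-kB). The Tlr2 promoter held an NF-kB match at -172 bp and an EGR match at -71 bp of the RefSeq start. The Tlr5 promoter held an EGR match at -44 bp, and the Tlr3 promoter held an NF-kB match at -211 bp and a C/EBP match at -95 bp. The Tlr9 promoter held PU.1 matches at -112 bp and, on the opposite strand, at 12 bp, with an AP-1 match at -58 bp between them. The Tlr1 site held a C/EBP match and none to the EGR letters. None of the printed matches overlapped another. Among all 32851 RefSeq promoters of this length, 28.3% held the PU.1 letters, 7.97% EGR, 6.95% STAT6, 10.8% C/EBP, 7.81% AP-1 and 1.2% NF-kB. Among the 4677 EGR2 sites induced by 24 h of IL-4, cut to the same length, the shares were 44.3%, 6.56%, 21.2%, 20.6%, 25.7% and 1.48%, in the same order. A match describes these letters and is no measure of binding.

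Values were read for 155 libraries of 4691644 to 29050468 tags. Each histone or factor group held 2 libraries and each strain's Pol II groups at basal and 24 h held 2 to 4, while the C57 Pol II group at 1 h and each Pol II group of the Egr2 genotypes held 1. The study's methods call the replicates biological, but the labels do not say whether they came from separate animals or cultures, so p-values measure only the spread between these samples. Of 10 macrophage marker genes fixed for a check of the cell type, all with a promoter region (9 in SPRET, 10 elsewhere) carried H3K27ac above 16 tags, with summed levels of 3458 to 5583 tags in basal cells and 2366 to 2977 after IL-4. None of 6 T cell markers had a promoter region. Summed levels were 44.6 to 122 tags for 4 B cell markers, of which only Ms4a1 passed 16 tags, and 48.5 to 347 for 6 neutrophil markers. They were 2.365 to 46.0 for 4 dendritic cell markers and 0 to 7.01 for 5 fibroblast markers. The summed macrophage levels were lower after IL-4 in every strain, as many Tlr levels were, and their part in the results was not tested. In bulk samples such as these, fewer cells with a mark and less of the mark per cell cannot be told apart.

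A change is given by 2 calls. Under the fold rule, the group means, each plus 1 tag, had to differ by at least 2.5-fold with a mean of at least 16 tags (8 for Pol II) in either group. The other call is limma on log2(tags + 1), fitted over all regions of a table, at a Benjamini-Hochberg adjusted p below 0.05. Fold changes are ratios of means on the tags + 1 scale, which understates the change at low levels.

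After 24 h of IL-4, H3K27ac fell around the Toll-like receptor genes in 4 of the 5 strains, and the falls lay mainly at Tlr2, Tlr9, Tlr7 and Tlr5. By the fold rule 40 of the 250 regions fell (16%) and 1 rose, where 4.5% of all regions fell and 3.08% rose. Among regions with a mean of at least 16 tags in either group, 18.9% of the 212 member regions fell, beside 6.75% of all. In all 40 the libraries of the groups did not overlap. Of all regions 13760 fell, and 12876 of these had no overlap (4.21% of all regions), so most falls anywhere lacked overlap. Of the 40, 15 lay at Tlr2, 10 at Tlr9, 9 at Tlr7, 5 at Tlr5 and 1 at Tlr3, and none at Tlr1, Tlr4, Tlr6, Tlr8 or Tlr13. The regions that fell numbered 11 of 54 in C57, 11 of 54 in BALB, 13 of 59 in NOD, 5 of 47 in PWK and 0 of 36 in SPRET, where the shares of all regions that fell were 7.55%, 5.13%, 5.14%, 3.01% and 0.939%. The median log2 fold change of the member regions was -0.72 in C57, -0.63 in BALB, -0.70 in NOD, -0.48 in PWK and -0.29 in SPRET, beside -0.28, -0.26, -0.22, -0.17 and -0.07 over all regions. Limma called 2 of the 250 regions, both lower and both in BALB, where it called 0.653% of all regions lower (0.159% over the 5 tables). The limma count over the strains was 0 without either BALB basal library or BALB 24 h replicate 2, and 15 without BALB 24 h replicate 1. A fit with the replicate number as a block called more regions, as given in the closing section. Without adjustment 60 were lower and 4 higher at p below 0.05, beside 8.21% and 5.84% of all regions. The strains had separate tables with their own regions, and strains were not tested against each other.

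The median of all regions was itself below 0, and median-ratio scaling of the libraries moved it by 0.08 to 0.32 on the log2 scale. Under that scaling 25 of the 250 regions fell, with 6, 6, 10, 3 and 0 in C57, BALB, NOD, PWK and SPRET, and 5 rose. The shares of all regions under it are not given. By limma under it 180 regions were lower, and by the ratio of means as deposited 203 of 250. Here and below, for histone marks and Pol II, member medians and counts of lower regions under this scaling come from limma. Those as deposited come from ratios of means. Under median-ratio scaling the member median was -0.34, and those of all regions ran from -0.007 in SPRET to 0.026 in C57. The share of H3K27ac tags inside regions was 48.4% to 65.4% in basal libraries and 28.7% to 57.1% after IL-4. Its part in the result was not tested.

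Tlr2, the receptor for bacterial lipoproteins that pairs with TLR1 or TLR6, lost H3K27ac over its whole neighbourhood, with 15 of 31 regions past the fold rule and 30 of 31 lower (28 of 31 under median-ratio scaling). At its promoter in C57 (chr3:83841207-83842207, over an untranslated exon), H3K27ac was 227 and 128 tags in basal cells and 78.9 and 16.4 after IL-4, 3.67-fold lower. The corresponding values were 248 and 132 against 102 and 24.3 in BALB (2.97-fold lower) and 242 and 172 against 65.8 and 29.3 in NOD (4.29-fold lower). Both IL-4 libraries lay below both basal libraries in these 3 strains, and the promoter passed the fold rule in each. In PWK the promoter had 254 and 213 tags before and 162 and 78.3 after IL-4, and in SPRET 327 and 192 before and 163 and 109 after. These changes of 1.93-fold and 1.90-fold were in the same direction with no overlap and did not pass the fold rule.

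The tallest distal region of Tlr2, at -21392 bp (chr3:83862659-83863659, intergenic), had 181 and 167 tags in basal C57 cells and 69.6 and 23.6 after IL-4, 3.68-fold lower. It fell also in BALB (log2 fold change -1.42), NOD (-2.02) and PWK (-1.36) by the fold rule. In SPRET it had 196 and 118 tags before and 138 and 68.9 after IL-4, and the groups overlapped. The largest fall of H3K27ac near a member in C57 lay in the Tlr2 intron at 2125 bp (chr3:83839142-83840142), with 104 and 98.4 tags before and 29.7 and 9.84 after, 4.91-fold lower. The same intron fell in BALB (log2 fold change -1.90) and NOD (-2.01). The largest fall in BALB was the intergenic region at -3585 bp (chr3:83844852-83845852), where 152 and 116 tags became 33.9 and 21.9. Limma called this region, with a log2 fold change of -2.24 ± 0.66 (SE, n = 2 and 2, adjusted p = 0.0343), and it also passed the fold rule in C57 and NOD.

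Tlr6 and Tlr1, the partners of TLR2 for diacylated and triacylated lipopeptides, had no region past the fold rule. The Tlr6 promoter had 596 and 409 tags before IL-4 and 299 and 276 after in C57, a log2 fold change of -0.80. Its log2 fold changes were -0.66 in BALB, -0.69 in NOD, -0.48 in PWK and -0.35 in SPRET, with no overlap of the groups in C57, NOD and PWK. Tlr1 had a promoter region in the NOD table only, with 103 and 142 tags before and 91.9 and 118 after IL-4, which overlapped. Its distal region near 10.4 kb, past the end of the gene, was lower in each strain, with log2 fold changes of -0.90 in C57, -0.97 in BALB, -0.93 in NOD, -1.01 in PWK and -0.48 in SPRET, and overlapped in NOD alone.

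Tlr4, the lipopolysaccharide receptor, had regions on both sides: 11 of its 24 were lower, 13 were higher, and the median log2 fold change was 0.16 (6 lower and a median of 0.32 under median-ratio scaling). Its promoter (chr4:66827079-66828079 in C57) had 588 and 632 tags before IL-4 and 383 and 359 after in C57, the only strain with no overlap. The values were 575 and 633 against 656 and 320 in BALB, 558 and 760 against 607 and 483 in NOD, 469 and 572 against 614 and 360 in PWK, and 423 and 479 against 606 and 458 in SPRET. The log2 fold changes ran from -0.72 in C57 to 0.24 in SPRET and none passed either call. In PWK the small negative change turned positive under median-ratio scaling.

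The only member region that rose by the fold rule was upstream of Tlr4, at -5654 bp in C57 (chr4:66821430-66822430, intergenic), where H3K27ac went from 13.6 and 13.6 tags to 33.1 and 53.8, 3.05-fold higher. Under median-ratio scaling it rose 3.87-fold, and 4 regions joined it: Tlr4 at 21612 bp in BALB (2.52-fold), Tlr4 at 24591 bp in NOD (2.73-fold), and Tlr13 at 20950 bp in C57 (2.74-fold) and at 20955 bp in NOD (2.92-fold). The Tlr4 intron near 24.6 kb was singled out after its values were seen. There NOD had 154 and 187 tags before and 466 and 348 after IL-4, SPRET 176 and 189 before and 465 and 283 after, and C57 102 and 205 before and 241 and 268 after. These groups did not overlap, those of BALB and PWK did, and all 5 log2 fold changes were positive (0.47 to 1.25), with no call by the fold rule or limma on the deposited scale.

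Tlr5, the flagellin receptor, had the lowest promoter H3K27ac of the members with a promoter region in C57 and fell by the fold rule in BALB, NOD and PWK. This region, at -913 bp in C57, -916 in BALB and -917 in NOD, covered neither the gene start nor the printed promoter. In BALB the region at -916 bp (chr1:182953372-182954372, intergenic) had 23.5 and 32.8 tags before and 4.52 and 8.10 after IL-4. Limma called it, with a log2 fold change of -2.02 ± 0.56 (SE, n = 2 and 2, adjusted p = 0.0197). The same region had 33.2 and 46.8 tags before and 4.34 and 7.88 after in NOD, 5.77-fold lower and the largest fall in that strain. In PWK it had 15.4 and 18 before and 4.04 and 5.73 after, 3.01-fold lower. In these 3 strains the groups did not overlap, and the fold rule was passed. In C57 10.2 and 35.6 tags before stood against 14.4 and 10.5 after, and in SPRET 5.98 and 1.32 against 5.29 and 5.38, both with overlap. The Tlr5 intron at 5463 bp fell in C57, from 24.4 and 15 tags to 8.49 and 5.91, and in BALB at 5481 bp, from 18.4 and 20.3 to 6.78 and 4.29.

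Among the endosomal receptors, Tlr3, which binds double-stranded RNA, was lower at all 9 of its regions, and 1 passed the fold rule. This was the intergenic region at -4128 bp in C57 (chr8:45414708-45415708), with 86.8 and 80.6 tags before and 29.7 and 17.7 after IL-4 and a log2 fold change of -1.78. In NOD, BALB and PWK the same region changed by -1.13, -1.13 and -1.01 with no overlap, and in SPRET by -0.60 with overlap. The Tlr3 promoter region had log2 fold changes of -0.71 in C57, -0.57 in BALB, -0.25 in NOD and -0.50 in PWK, each with overlapping groups. The SPRET table held no promoter region for Tlr3.

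Tlr7, a receptor for single-stranded RNA, was lower at 27 of 28 regions under the deposited scale and under median-ratio scaling, and 9 regions fell by the fold rule. Its promoter (chrX:167330054-167331054 in C57) had 400 and 288 tags before and 169 and 142 after IL-4 in C57, 2.2-fold lower. The log2 fold changes were -1.14 in C57, -1.10 in BALB, -0.91 in NOD and -0.77 in PWK, with no overlap in any of these 4 and no call by the fold rule. The region near -23243 bp, in an intron of the neighbouring gene Prps2, fell by the fold rule in 4 strains. It had 131 and 130 tags before and 42.4 and 39.4 after IL-4 in C57, and 141 and 149 before and 43.8 and 34.4 after in PWK. Inside Tlr7, the intron at 11585 bp in C57 fell from 308 and 252 tags to 86.6 and 118, and changed by -1.18 in BALB and -0.96 in NOD without passing the fold rule. Tlr8, its neighbour and another receptor for single-stranded RNA, had no call. The Tlr8 promoter had 122 and 307 tags before and 184 and 223 after IL-4 in NOD, and 232 and 240 before and 295 and 222 after in SPRET, the 2 strains with such a region. Its distal region near -12440 bp had 70.7 and 84.1 tags before and 124 and 108 after in NOD, and was also higher with no overlap in PWK (log2 fold change 0.37), with no call in either.

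Tlr9, the receptor for unmethylated CpG DNA, fell at its promoter in 4 of 5 strains. In C57 the region (chr9:106222664-106223664, over an intron) had 602 and 444 tags before and 144 and 92.5 after IL-4, 4.38-fold lower. In PWK (chr9:106222030-106223030) 163 and 244 tags became 35 and 57.3, 4.33-fold lower and the largest fall in that strain, with a limma adjusted p of 0.0626. The fall was 2.54-fold in BALB, where 415 and 357 tags became 222 and 80.5, and 3.52-fold in NOD, where 278 and 439 became 119 and 82.7. In these 4 strains no IL-4 library reached a basal library. In SPRET 222 and 119 tags before stood against 127 and 43.1 after, with overlap and a 1.99-fold difference. Of the 60 regions within 25 kb of Tlr9, 37 lie nearer to the start of another gene; of the other 23, 7 fell by the fold rule. The other 3 falls lay in an intron of Twf2 near -18 kb, in C57, BALB and NOD.

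Tlr13, a mouse receptor for bacterial ribosomal RNA, had 28 of 37 regions lower (27 under median-ratio scaling) and none past the fold rule. Its promoter had 373 and 313 tags before and 144 and 153 after IL-4 in C57, 2.30-fold lower. The log2 fold changes were -1.20 in C57, -1.05 in BALB and -1.03 in NOD, with no overlap, and -0.29 in SPRET, with overlap. The intergenic region near -6819 bp had 588 and 473 tags before and 296 and 260 after in C57.

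In basal C57 cells the promoter H3K27ac stood in the order Tlr4 (588 and 632 tags), Tlr9 (602 and 444), Tlr6 (596 and 409), Tlr7 (400 and 288), Tlr13 (373 and 313), Tlr2 (227 and 128), Tlr3 (233 and 81.3) and Tlr5 (10.2 and 35.6). Tlr4, Tlr9 and Tlr6 overlapped each other as neighbours, as did Tlr7 with Tlr13 and Tlr2 with Tlr3. Tlr6 and Tlr7, Tlr13 and Tlr2, and Tlr3 and Tlr5 did not overlap. The Tlr9, Tlr3 and Tlr5 regions, centred at 566, 747 and -913 bp, did not cover the GENCODE start. After IL-4 the Tlr9 promoter, with 144 and 92.5 tags, lay below that of Tlr6 (299 and 276) with no overlap and overlapped that of Tlr7 (169 and 142).

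**Figure D1:**
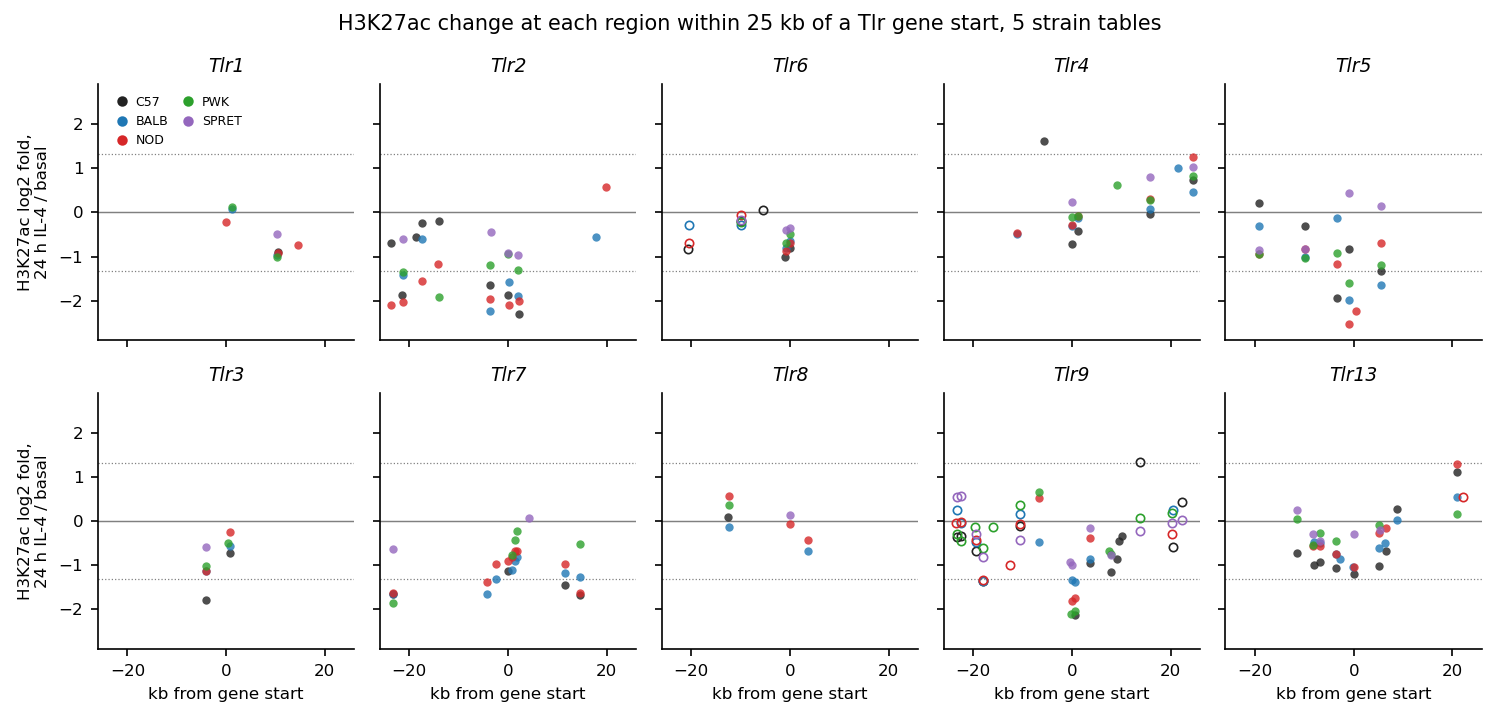
Log2 fold change of H3K27ac after 24 h of IL-4 (vertical axis) against distance from the gene start in kb (horizontal axis) for the regions of each gene, coloured by strain, with dotted lines at 2.5-fold and open circles for regions whose nearest protein-coding start is that of another gene. The regions of Tlr2 and Tlr7 lie almost all below 0 (30 of 31 and 27 of 28), while those of Tlr4 lie on both sides (11 of 24 below).

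In Pol II, Tlr2 fell by the fold rule in all 5 strains, while no Tlr4 region was lower. Of the 250 regions, 17 fell by the fold rule (6.8%), 11 of them with no overlap, where 1.14% of all regions fell and 0.893% with no overlap; 1 rose, beside 2.72% of all regions. Among regions with a mean of at least 8 tags in either group, 7.87% of the 216 member regions fell, beside 1.62% of all. Tlr2 held 12 of the 17, in all 5 strains, Tlr9 held 4 and Tlr7 held 1. All 24 Tlr4 regions were higher, also under median-ratio scaling, while all 28 Tlr7 regions were lower. None of the 24 passed a call. Median log2 fold changes of the members were -0.29 in C57, -0.17 in BALB, -0.46 in NOD, -0.22 in PWK and -0.46 in SPRET, beside -0.05, 0.30, -0.03, -0.03 and -0.10 over all regions. In BALB, median-ratio scaling moved the median of all regions by -0.32. Limma called 1 region lower, in PWK, where it called 0.281% of all regions lower (0.133% over the 5 tables). This was the Tlr7 intron at 14556 bp (chrX:167315502-167316502), with 64.2, 74.1 and 90.2 tags before and 33.8, 21.6 and 29.1 after IL-4, a log2 fold change of -1.41 ± 0.29 (SE, n = 3 and 3, limma adjusted p = 0.0255), and it was not called without PWK basal replicate 2 or 3 or 24 h replicate 2.

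In C57, PWK and SPRET, Pol II libraries with the same replicate number deviated together, so the fit with the replicate number as a block is given beside the other. In that limma fit 2 member regions were called lower in C57 and none higher, 11 lower and 3 higher in PWK, and 11 lower and 1 higher in SPRET, against 0, 1 and 0 calls without the block. Of all regions, those the same fit called lower and higher were 0.394% and 0.415% for C57, 3.82% and 5.96% for PWK, and 4.83% and 3.56% for SPRET. The Tlr2 intron near 2.1 kb had 208, 148, 54.1 and 60.8 tags in basal C57 cells and 40.0, 15 and 12.8 after IL-4, 5.03-fold lower with no overlap (limma adjusted p = 0.0654, with the block 0.0041). In NOD it had 158 and 138 tags before and 27.7 and 22.9 after, 5.66-fold lower with no overlap (limma adjusted p = 0.11). It passed the fold rule in the other strains too, with overlap of the groups. There the values were 197, 88.4 and 63.5 against 74.6 and 14.3 in BALB, 178, 39.9 and 108 against 61.8, 16.2 and 44.5 in PWK (limma adjusted p with the block 6.7e-06), and 279, 45.7 and 104 against 71.0, 33.2 and 63.7 in SPRET (limma adjusted p with the block 0.012).

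At the Tlr2 promoter Pol II fell by the fold rule in C57, from 202, 152, 72.3 and 78.0 tags to 53.4, 47.3 and 15.4, and in NOD, from 141 and 141 to 54.3 and 23.6. The log2 fold changes in BALB, PWK and SPRET were -0.83, -0.82 and -0.90. At Tlr9 Pol II fell by the fold rule at 4 regions in 3 strains, NOD, PWK and SPRET. In SPRET the promoter region at 49 bp went from 106, 46.4 and 69.3 tags to 38.0, 20.5 and 21.2, with no overlap (limma adjusted p with the block 0.00058), and the region at -272 bp passed too (log2 fold change -1.40). In NOD the region at 601 bp went from 76.6 and 115 tags to 34.5 and 35.1, with no overlap, and in PWK the region at 598 bp went from 43.7, 86.0 and 111 to 15.1, 18.3 and 53.0, with overlap. The regions nearest the start missed the rule in the other strains, with log2 fold changes of -0.94 in C57 (at 566 bp), -0.92 in BALB, -1.14 in NOD and -1.31 in PWK.

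At the Tlr4 promoter Pol II had 323, 372 and 180 tags before and 503 and 517 after IL-4 in BALB, and 300 and 406 before and 434 and 441 after in NOD, with no overlap in these 2 strains. In C57 the values were 291, 258, 295 and 264 before and 315, 268 and 318 after, in PWK 270, 276 and 356 before and 380, 328 and 471 after, and in SPRET 311, 241 and 335 before and 406, 314 and 302 after. These log2 fold changes of 0.12, 0.38 and 0.21 came with overlap, and those in BALB and NOD were 0.80 and 0.31. Only Tlr8 had a rise by the fold rule, at -12407 bp in BALB, where 14.7, 24.9 and 16.4 tags became 53.3 and 57.1 (limma adjusted p = 0.44). Log2 fold changes of promoter Pol II were -0.50 to -0.91 at Tlr7 and -0.36 to 0.18 at Tlr6, and Pol II at the Tlr5 promoter reached at most 6.56 tags.

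**Figure D2:**
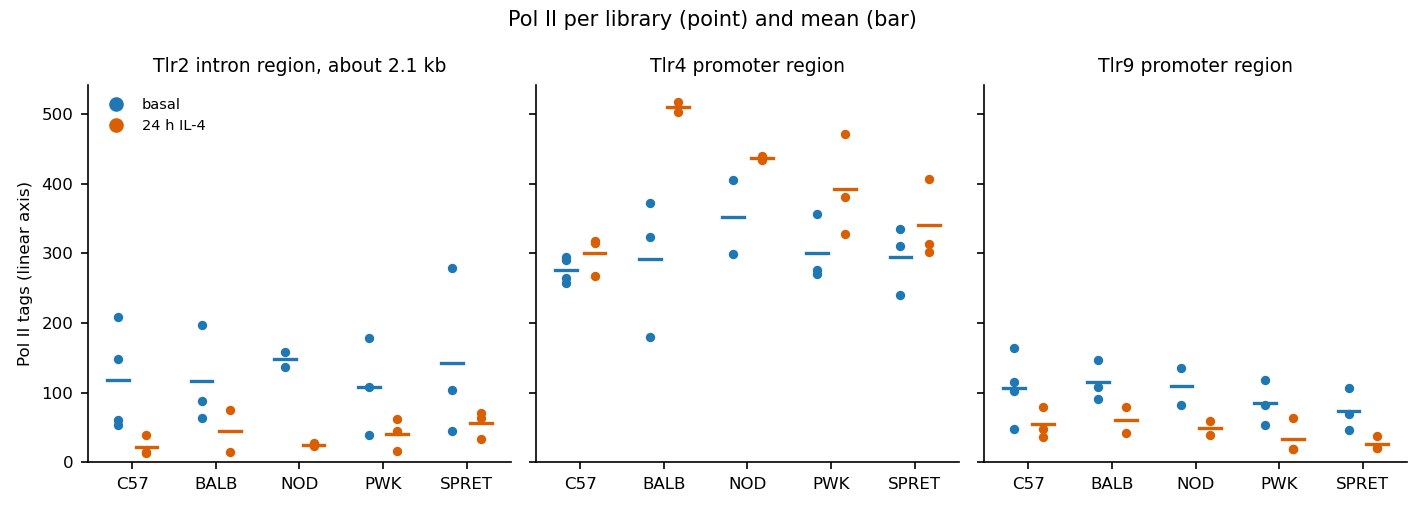
Pol II (normalized tags, linear axis) at the Tlr2 intron near 2.1 kb, the Tlr4 promoter and the Tlr9 promoter in 5 strains, with points for libraries and bars for means, basal in blue and 24 h of IL-4 in orange. The Tlr2 intron is lower after IL-4 with no overlap in C57 and NOD, and the Tlr4 promoter is higher with no overlap in BALB and NOD.

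H3K4me3 fell by the fold rule at 13 of 250 regions, 12 of them with no overlap, and rose at none, where 0.165% of all regions fell, 0.151% with no overlap, and 0.362% rose. Among regions with a mean of at least 16 tags in either group, 10.9% of the 119 member regions fell, beside 0.435% of all. The 13 were 7 regions at Tlr9 in 4 strains, 5 at Tlr2 in all 5 strains and 1 at Tlr5. The Tlr2 intron near 2.1 kb had 195 and 181 tags before and 45.4 and 32.8 after IL-4 in NOD, and limma called it, with a log2 fold change of -2.26 ± 0.36 (SE, n = 2 and 2, adjusted p = 0.0191); limma called 0.00164% of all regions lower over the 5 tables, and none of the member regions without any NOD library. The same intron had 210 and 98.0 tags before and 73.9 and 19.5 after in C57, 331 and 117 before and 91.8 and 45.7 after in PWK, and 189 and 65.1 before and 49.9 and 36.8 after in SPRET. In these 4 strains the groups did not overlap, and in BALB, with 226 and 68.5 against 81.0 and 20.7, they did. The Tlr9 promoter had 227 and 206 tags before and 90.4 and 64.0 after in C57, and its log2 fold changes were -1.48 in C57, -1.54 in NOD, -1.49 in PWK and -1.58 in SPRET. In BALB it had 122 and 109 tags before and 59.5 and 38.6 after, a log2 fold change of -1.22 with no overlap that missed the fold rule.

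H3K4me2 fell at 3 regions by the fold rule and rose at none, beside 0.452% and 0.425% of all regions, with no limma call (0.0183% of all regions lower). At an unadjusted p below 0.05, 49 were lower and 1 higher, beside 14.6% and 1.88% of all regions. DESeq2 and edgeR called none either. The 3 were the Tlr2 intron at 2125 bp in C57, from 165 and 144 tags to 83.6 and 36.6, the Tlr2 region at -23699 bp in NOD, from 53.6 and 38.3 to 17.3 and 17.8, and a Tlr7 region at 4266 bp in SPRET, from 28.3 and 17.6 to 12 and 3.76. Median-ratio scaling moved the median of all regions by 0.17 to 0.67 on the log2 scale, and under it none of the 3 passed. Lower regions numbered 227 of 250 by the ratio of means as deposited and 157 by limma under that scaling.

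The C57 time course shares its basal and 24 h libraries with the C57 strain table, and its 3 times share their basal libraries, so their values are given side by side. Of 61 regions, 25 fell in H3K27ac by the fold rule at 1 h, 9 at 6 h and 12 at 24 h, and 1, 4 and 1 rose. Of all regions 20.6%, 8.64% and 7.09% fell and 2.31%, 5.59% and 3.77% rose. The share of H3K27ac tags inside regions was 69.7% and 63.8% in the basal libraries and 44.0% and 20.5% at 1 h. It was 51.0% and 50.2% at 6 h and 46.4% and 41.2% at 24 h, and its part in these counts was not tested. Under median-ratio scaling 5, 8 and 9 member regions fell and 4, 4 and 3 rose, given here without the shares of all regions. Limma called 12 regions lower at 1 h, 4 lower and 1 higher at 6 h and 1 lower at 24 h, where it called 8.36%, 2.46% and 0.327% of all regions lower and 2.67% higher at 6 h. The count at 1 h rested on its libraries: without 1 h replicate 1 it was 35, without each of the others 2 to 5, and edgeR called 0 lower and 1 higher. At 6 h no region was called without either 6 h library. At 24 h none was called without either basal or either 6 h library or without 24 h replicate 2.

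The Tlr9 promoter (chr9:106222100-106223100) had 541 and 359 tags in basal cells, 16.2 and 65.4 at 1 h, 43.9 and 90.7 at 6 h and 120 and 69.6 at 24 h. It lay below the basal libraries at every time, with log2 fold changes of -3.71 ± 0.65 at 1 h (SE, n = 2 and 2, limma adjusted p = 0.00932), -2.78 ± 0.65 at 6 h (limma adjusted p = 0.02) and -2.25 ± 0.65 at 24 h (limma adjusted p = 0.0909). The Tlr2 intron at 2154 bp (chr3:83839113-83840113) went from 101 and 93.4 tags to 19.3 and 18.2 at 1 h, 29.3 and 20.7 at 6 h and 29.7 and 9.84 at 24 h. Limma called it at 1 h (-2.31 ± 0.59, adjusted p = 0.0263) and 24 h (-2.43 ± 0.59, adjusted p = 0.0465) and not at 6 h (-1.94 ± 0.59, adjusted p = 0.0633).

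The Tlr3 region at -4112 bp had 87.5 and 80.6 tags in basal cells, 27.1 and 27.9 at 1 h, 20.8 and 14.6 at 6 h and 29.7 and 17.7 at 24 h, and was called at 6 h (-2.20 ± 0.55, limma adjusted p = 0.0268). The Tlr5 promoter had 10.9 and 35.6 tags in basal cells and 3.08 and 3.04 at 6 h (-2.36 ± 0.64, limma adjusted p = 0.0383). At 24 h it had 14.4 and 10.5 tags, which overlapped the basal libraries. The other limma calls were Tlr9 at 593 bp at 1 and 6 h (590 and 436 tags against 60.8 and 101 at 6 h), Tlr9 at 3760, 7881 and -19453 bp, Tlr2 at -3575 bp, Tlr7 at 14575 bp, Tlr13 at -6806, 5198 and 6516 bp and Tlr1 at 10406 bp at 1 h. The call that was higher lay at 13777 bp from Tlr9, nearer to Alas1, with 2.71 and 2.14 tags before and 18.5 and 19.5 at 6 h (2.55 ± 0.63, limma adjusted p = 0.0262).

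The Tlr4 promoter passed no call at any time, with 611 and 647 tags in basal cells, 473 and 179 at 1 h, 511 and 326 at 6 h and 401 and 372 at 24 h. The region at -5654 bp upstream of it rose by the fold rule at all 3 times, from 13.6 and 13.6 tags to 69.6 and 16.9, 71.6 and 38.3, and 33.1 and 53.8. All IL-4 libraries lay above both basal ones, and limma called none of the times (adjusted p = 0.18, 0.10 and 0.227). The Tlr2 promoter had 229 and 129 tags in basal cells and 114 and 32.7, 105 and 71.2, and 79.8 and 16.4 at 1, 6 and 24 h, and passed the fold rule at 24 h. The Tlr13 promoter had 370 and 311 tags in basal cells and 216 and 51.3, 263 and 167, and 143 and 155 at the 3 times, and passed the fold rule at 1 h.

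In Pol II, 11 regions fell at 1 h, 6 at 6 h and 5 at 24 h by the fold rule, and 0, 3 and 0 rose, where 6.56%, 2.57% and 1.55% of all regions fell and 2.76%, 2.52% and 1.79% rose. The 1 h group held 1 library, which the fit assumed to vary like the others. Limma called 1 region, the Tlr2 intron at 2154 bp at 24 h, and of all regions it called 0.0449%, 0.137% and 0.174% lower at 1, 6 and 24 h. There basal libraries had 203, 145, 54.7 and 60.8 tags, 1 h had 21.8, 6 h had 35.6 and 13.7, and 24 h had 38.7, 15.9 and 12.8 (-2.26 ± 0.51 at 24 h, SE, limma adjusted p = 0.047). All IL-4 libraries lay below all basal ones. With the replicate number as a block, limma called 5 regions at 1 h, 3 at 6 h and 5 at 24 h, all lower, beside 0.322%, 0.381% and 1.09% of all regions lower. The Tlr9 promoter had 37.4, 188, 72.3 and 126 tags in basal cells, 11.7 at 1 h, 34 and 35.1 at 6 h and 52.0, 76.9 and 43.6 at 24 h. The 1 h and 6 h libraries lay below the basal ones, and those of 24 h overlapped them.

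**Figure D3:**
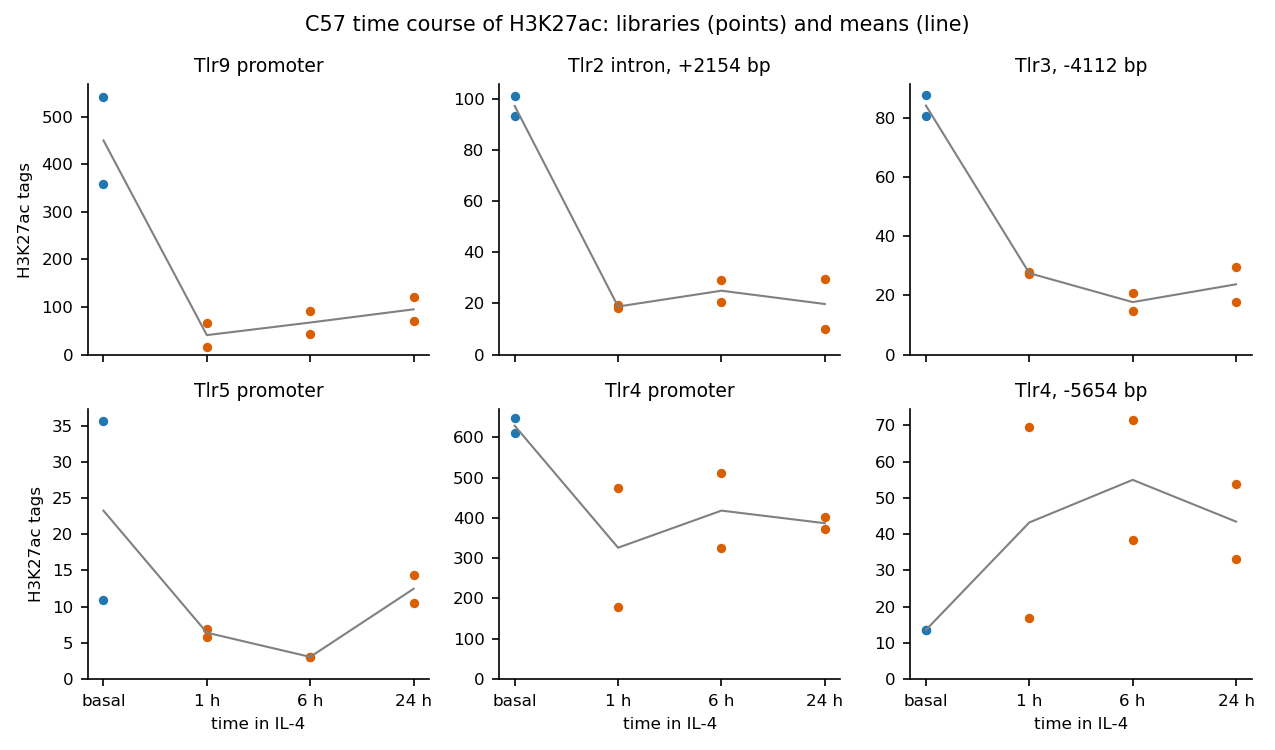
H3K27ac in C57 macrophages (normalized tags) at 6 regions in basal cells and after 1, 6 and 24 h of IL-4 (times not to scale), with points for libraries and a line through the means. The Tlr9 promoter, the Tlr2 intron and the Tlr3 region at -4112 bp lie below the basal libraries at each time, the Tlr4 promoter passed no call, and the region at -5654 bp of Tlr4 lies above them.

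EGR2 is a zinc finger factor that macrophages induce under IL-4. Its 26 sites near the members gave no limma call at any time, as did all 30675 sites (0.0%), and 2, 2 and 0 had an unadjusted p below 0.05 at 1, 6 and 24 h. EdgeR and DESeq2 called none of the 26. The median log2 fold change of the 26 was -0.52 at 1 h, 0.17 at 6 h and 0.74 at 24 h, beside -0.59, 0.17 and 0.66 over all sites. Higher than basal were 5, 14 and 21 of the 26 on the deposited scale and 15, 12 and 14 under median-ratio scaling, where the medians of the 26 were 0.04, -0.06 and 0.11. The Tlr2 promoter site at 84 bp, which covers the EGR match of the promoter printed above, had 72.1 and 133 tags in basal cells, 20.8 and 84.9 at 1 h, 66.3 and 121 at 6 h and 78.1 and 98.9 at 24 h, with overlap throughout.

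The largest increases were at Tlr4, Tlr9 and Tlr1. The Tlr4 site at 21673 bp, in an intron, had 4.21 and 5.37 tags in basal cells, 5.42 and 6.75 at 1 h, 27.9 and 15.8 at 6 h and 15.7 and 15.4 at 24 h, with no overlap from 1 h on (1.94 ± 0.93 at 6 h, SE, limma adjusted p = 1). The Tlr4 site at -5622 bp had 13.1 and 6.71 tags in basal cells and 22 and 45.1 at 24 h (1.64 ± 1.22, limma adjusted p = 0.84), but 0 and 47.4 at 6 h. The Tlr9 site at 7552 bp had 49.6 and 133 tags in basal cells, 253 and 199 at 6 h (1.45 ± 0.66) and 68.7 and 113 at 24 h. The Tlr1 site at 1190 bp, in an intron, had 19.7 and 13.4 tags in basal cells and 45.3 and 29.8 at 24 h (1.13 ± 0.75). The largest decreases were at -21311 bp of Tlr2 at 1 h (35.1 and 52.4 tags to 1.81 and 36.7), at -22 bp of Tlr7 at 1 h (22.5 and 14.8 to 1.81 and 9.64), and at 22406 bp of Tlr9, nearest to Alas1, at 6 h (13.1 and 25.5 to 1.75 and 11.2).

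Of the 4677 sites that gained EGR2 after 24 h of IL-4, which were the sites measured by genotype, 3 lay near members: Tlr1 at 1191 bp and Tlr4 at -5622 and 21673 bp. In LyzM-Cre Egr2 fl/fl against Egr2 fl/fl cells at 24 h of IL-4, limma called none of the 3 sites for H3K27ac, H3K4me2, STAT6, PPARγ, C/EBPβ or PU.1, with 1 site lower at an unadjusted p below 0.05 for each of H3K27ac, STAT6, PPARγ and PU.1. DESeq2 called none and edgeR 1, H3K27ac at -5622 bp of Tlr4, higher in Cre cells. Of all sites limma called 23.2% lower and 1.41% higher for H3K27ac, and lower 8.94% for H3K4me2, 0.0214% for STAT6, 0.0% for PPARγ, 8.25% for C/EBPβ and 9.36% for PU.1. Median-ratio scaling moved the median of all sites between genotypes by 0.48 on the log2 scale for H3K27ac, 0.91 for C/EBPβ, 0.64 for STAT6 and 0.22 for PU.1. Under it limma called H3K27ac higher in Cre cells at both Tlr4 sites (0.96 at -5622 bp, adjusted p = 0.0463, and 0.69 at 21673 bp, adjusted p = 0.0481). The shares above belong to the deposited scale, and those of all sites called under median-ratio scaling are not given. These calls therefore cannot be set against the other sites. The median H3K27ac difference over all sites was -0.50 as deposited and -0.03 under that scaling. At the Egr2 gene, H3K27ac at 3741 bp averaged 44.1 tags in basal and 175 in IL-4-treated Egr2 fl/fl cells, and 32.8 and 152 in the Cre cells. That site does not check the deletion.

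At the Tlr1 site (chr5:64931872-64932872), H3K27ac had 57.3 and 59.1 tags in IL-4-treated Egr2 fl/fl cells and 47.8 and 16.2 in Cre cells, with 46.9 and 42.1, and 21.1 and 24.7, in the basal groups. The Cre libraries lay below the fl/fl libraries in both conditions (-1.03 ± 0.38 with IL-4, SE, n = 2 and 2, limma adjusted p = 0.0611, and -0.93 ± 0.38 in basal cells, limma adjusted p = 0.331). PU.1 had 56.5 and 53.1 tags in IL-4-treated fl/fl cells and 34.5 and 27.3 in Cre cells, against 28.1 and 29.2, and 17.4 and 22.8, in basal cells (-0.82 ± 0.25 between genotypes with IL-4, limma adjusted p = 0.0509). Under median-ratio scaling the genotype differences with IL-4 were -0.50 for H3K27ac (limma adjusted p = 0.399) and -0.56 for PU.1 (limma adjusted p = 0.167). On the deposited scale limma called PU.1 higher with IL-4 in fl/fl cells (0.91 ± 0.25, adjusted p = 0.0356), as it did 8.19% of all sites. That call was lost under median-ratio scaling (0.64, limma adjusted p = 0.145), by edgeR (adjusted p = 0.122) and by DESeq2 (adjusted p = 0.37). STAT6 had 9.96 and 9.74 tags in IL-4-treated fl/fl cells and 2.06 and 0 in Cre cells, against 4.12 and 2.39, and 6.69 and 8.26, in basal cells. The genotypes did not overlap (-2.63 ± 0.76, limma adjusted p = 0.148), and the test of the difference between their IL-4 responses gave -3.65 ± 1.07 (limma adjusted p = 0.408). Under median-ratio scaling the STAT6 difference between genotypes was -2.02 (limma adjusted p = 0.997). These STAT6 levels rest on few reads, as 1 tag stood for 0.803 to 1.13 reads in the IL-4-treated libraries.

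The Tlr4 sites had other patterns. At -5622 bp (chr4:66821462-66822462), H3K27ac had 58.8 and 27.1 tags in basal fl/fl cells and 61.3 and 52.7 with IL-4, and 30.1 and 32.5 in basal Cre cells and 85.2 and 69.1 with IL-4. With IL-4 it rose in Cre cells by limma (1.27 ± 0.32, adjusted p = 0.00961), as did 14.4% of all sites, and in fl/fl cells the change was 0.50 ± 0.32 (limma adjusted p = 0.281). The difference between these responses was 0.77 ± 0.45 (limma adjusted p = 0.495). C/EBPβ there had 93.1 and 64.2 tags in IL-4-treated fl/fl cells and 34.6 and 37.5 in Cre cells (-1.08 ± 0.75, limma adjusted p = 0.325), a difference of -0.0003 under median-ratio scaling, and PPARγ had 13.3 and 11 against 0.7 and 0 (-3.33 ± 1.21, limma adjusted p = 0.32). At 21673 bp (chr4:66848757-66849757), H3K27ac went with IL-4 from 38.3 and 46.2 tags to 69.3 and 72.6 in fl/fl cells (0.74 ± 0.25, limma adjusted p = 0.0353) and from 49.1 and 43.7 to 70.7 and 88.8 in Cre cells (0.76 ± 0.25, limma adjusted p = 0.0421), where limma called 25.6% of all sites higher in fl/fl cells. Both calls were lost under median-ratio scaling (0.25 in fl/fl cells, limma adjusted p = 0.493, and 0.59 in Cre cells, limma adjusted p = 0.0967), and edgeR and DESeq2 called neither. STAT6 there had 16.2 and 19.5 tags in IL-4-treated fl/fl cells and 8.25 and 12.4 in Cre cells (-0.75 ± 0.61, limma adjusted p = 0.523), a difference of -0.02 under median-ratio scaling.

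**Figure D4:**
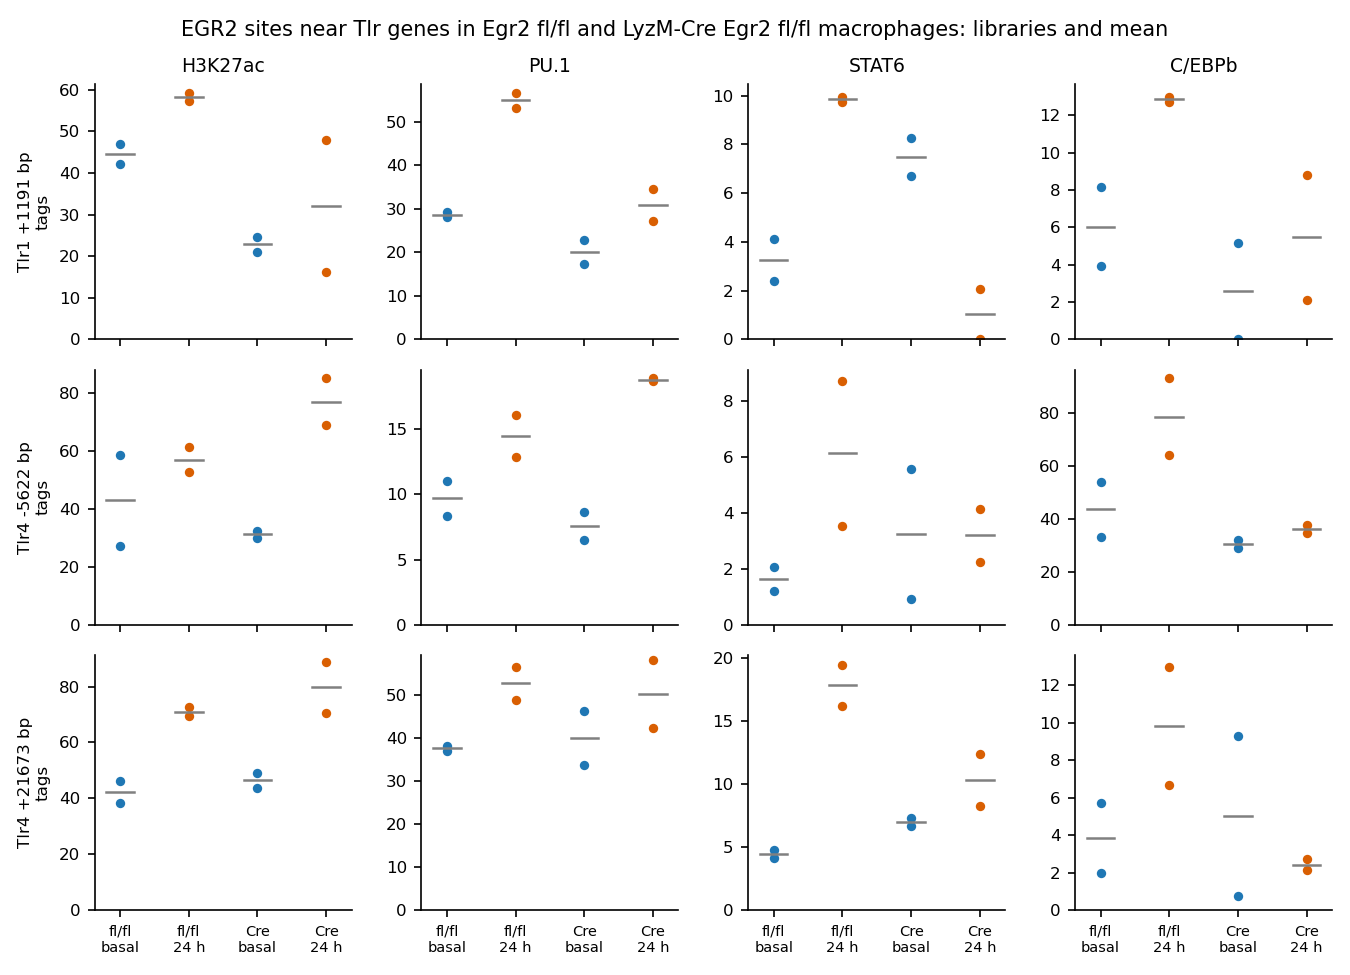
Normalized tags of H3K27ac, PU.1, STAT6 and C/EBPβ (columns) at the 3 sites near Tlr1 and Tlr4 (rows) in Egr2 fl/fl and LyzM-Cre Egr2 fl/fl cells, basal in blue and 24 h of IL-4 in orange, with points for libraries and bars for means. At the Tlr1 site the IL-4-treated Cre libraries lie below the fl/fl libraries in every column. At the Tlr4 sites they do so for C/EBPβ at both and for STAT6 at 21673 bp, and not for H3K27ac or PU.1.

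Lists of reproducible peaks gave 1 list per factor, strain and time. All 54 held peaks near Tlr2 and Tlr9, and 23 held 1 near Tlr3, the member with the fewest (41 peaks). Tlr4 and Tlr13 had the most, 332 each, and peaks within 1 kb of the start were present in 45 of 54 lists at Tlr4, 44 at Tlr2 and 12 at Tlr3. In the 25 lists made after 24 h of IL-4, 345 of 1070 member peaks overlapped no peak of the same strain's basal list, or 32.2%, beside 39.6% of all peaks; 148 basal peaks were lost. By factor the shares were 56.7% for EGR2 (all peaks 54.8%), 58.8% for PPARγ (72.1%), 40.0% for STAT6 (49.5%), 36.3% for C/EBPβ (45.7%) and 9.80% for PU.1, the lineage factor of macrophages (15.7%). The lists held 6201 to 101317 peaks, and cut to equal length they gave 136 gained and 176 lost (33 and 31 for PPARγ).

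The only peak near a member that was gained in all 5 strains was PPARγ in the Tlr4 intron, at 24430 to 24611 bp, inside the intron region with higher H3K27ac described above. It was 1 of 56 member places for PPARγ and 1 of 211 over all factors. Of all places with a gain in some strain, 0.437% for PPARγ and 0.501% over all factors were gained in all 5. The member count over all factors lay near that share. Peaks gained in 4 strains were STAT6 and C/EBPβ at Tlr7 (1798 to 1836 bp, not gained in C57, where STAT6 was listed there before IL-4 too, and from -8293 and 4117 bp), PPARγ, PU.1 and C/EBPβ at Tlr13 (from 8795, 7226 and -12402 bp), C/EBPβ and PPARγ at Tlr2 (from -14146 and -21496 bp) and PPARγ at Tlr8 (from -12421 bp). Gains in 4 or 5 strains made up 10 of 211 member places, or 4.74%, beside 3.25% of all places, and by factor 7.14% for PPARγ (all places 3.72%), 8.51% for C/EBPβ (4.26%), 3.70% for PU.1 (1.87%), 2.17% for STAT6 (5.05%) and 0.0% for EGR2 (1.21%). At the Tlr4 site at 21673 bp, PPARγ was listed in 5 strains at 24 h and 3 in basal cells, STAT6 in 5 and 2, PU.1 in 5 and 5, and EGR2 in 2 and 0. At -5622 bp C/EBPβ was listed in 5 strains at 24 h and 3 in basal cells, PU.1 in 4 and 2, STAT6 in 2 and 0 and EGR2 in 1 and 0. At the Tlr1 site PU.1 was listed in 5 and 4, STAT6 in 4 and 1 and EGR2 in 3 and 2.

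Of 46 other genes of the pathway, 37 to 41 had a promoter region in a strain table. H3K27ac fell by the fold rule at 7 of 41 in C57 (Cd14, Unc93b1, Tab2, Ikbke, Irf7, Irak3 and Nfkbiz), 2 of 40 in BALB (Cd14 and Irf7), 1 of 40 in NOD (Irak3), 0 of 37 in PWK and 0 of 38 in SPRET; none rose, and limma called none. Of all regions 7.55% fell in C57, 5.13% in BALB and 5.14% in NOD, so the count in BALB lay near that share and the count in NOD below it. The medians of their log2 fold changes were -0.97, -0.41, -0.45, -0.36 and -0.30. Cd14, the co-receptor that hands lipopolysaccharide to TLR4, had 480 and 547 tags before and 123 and 111 after IL-4 in C57. Unc93b1, which carries the endosomal receptors to their compartment, had 602 and 523 before and 237 and 202 after in C57. Myd88, the shared adaptor, had 199 and 175 before and 88.3 and 92.5 after in C57, with no overlap and no call.

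In Pol II, Cd14 was the only gene of the list that fell by the fold rule, in C57, NOD and SPRET, where 1.66%, 1.25% and 0.805% of all regions fell and limma called 0.096%, 0% and 0.27% lower. It had 213, 235, 303 and 315 tags before and 76.0, 71.9 and 91.1 after IL-4 in C57 (limma adjusted p = 0.027), 399 and 492 before and 176 and 168 after in NOD, and 367, 215 and 303 before and 91.3, 96.1 and 104 after in SPRET (limma adjusted p = 0.0109). None of these groups overlapped. So in these 3 strains Pol II fell at Cd14 and not at the Tlr4 promoter, where the log2 fold changes were 0.12, 0.31 and 0.21.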

How the data were processed

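The tables hold signal values that the authors deposited as HOMER-normalized tags per region, scaled to 10000000 reads per library; per the submitters' processing notes and the study's methods, reads were aligned with Bowtie2 (other strains to their own genomes, then shifted to mm10) and peaks were called with HOMER and filtered for reproducibility between replicates. Bowtie2 and HOMER versions are not given in the sources used here. Whole reads were recovered from 100% of 7268918 values (within 0.1 read), which served the count tests. Pol II columns without a matching sample numbered 4 and were left out. The deposited peak lists, with a score (tag count) per peak, stand for groups and carry no replicates.

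Regions were assigned in Python 3.11.15 (pandas 2.3.3, numpy 2.4.6). The main test was limma 3.58.1 (R 4.3.3) with a mean-variance trend on log2(tags + 1), with no filter, over all regions of a table and without a replicate block. Adjustment was by Benjamini-Hochberg, at 0.05. The fold rule needed 2.5-fold and 16 tags (8 for Pol II). Alternatives were edgeR 4.0.16, DESeq2 1.42.0, pseudocount 5, fold 2, filters, median-ratio scaling, 10 kb, the nearest start, the replicate block and leaving out each library. Scripts were tested on simulated data.

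Replicate numbers were held to pair libraries where, over 3 pairs, every correlation of their deviations from the group means passed 0.1. This was so in 4 comparisons, all Pol II (0.109 to 0.469): 3 strains and the time course. The members and gene lists were chosen with earlier results of these data known. Named regions were each member's promoter and tallest distal region in C57, the largest rise and fall per strain, regions called by limma (10 at most by p), and EGR2 sites (the 3 largest changes each way). Replicate libraries differed beyond sampling noise in all 99 pairs, and none were identical.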

Additional observations from a re-analysis of the deposited data

Results flagged for a closer look

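Among the 17 promoter and distal regions of the members tested in the group of 4 basal C57 Pol II libraries, 1 held a library far from the others. At -21392 bp of Tlr2, replicate 1 had 116 tags and the others 52.2, 49.3 and 41.5, and the gap took 0.857 of the range past Dixon's critical value for 4 samples. Chance gives such a gap in about 1 of 20 groups.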

How the results depend on the processing

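Over the 5 strains, the 40 regions with lower H3K27ac by the fold rule were 61 at 2-fold, 25 under median-ratio scaling and 24 within 10 kb, and 35 to 54 when 1 library was left out. The 1 that rose was 2 with no filter, 6 at 2-fold and 5 under median-ratio scaling (0 to 4 with 1 library left out, 0 without C57 24 h replicate 2). The 2 limma calls were 12 by DESeq2, 4 with a filter before the fit and 72 with the replicate block (0 to 15 with 1 library left out). For Pol II, 17 falls were 10 with a pseudocount of 5 and 33 at 2-fold (14 to 21), the 1 rise was 0 under median-ratio scaling and within 10 kb (1 to 2), and the 1 limma call was 10 by DESeq2, 5 by edgeR, 2 under median-ratio scaling and 44 with the replicate block (0 to 2). For H3K4me2, 3 falls were 0 with a pseudocount of 5, 14 at 2-fold and 0 under median-ratio scaling (2 to 21, with 21 without BALB 24 h replicate 1, 19 without C57 24 h replicate 1 and 5 without NOD basal replicate 1), no rise appeared in any leave-one-out fit (0 to 0), and the 0 limma calls were 17 with the replicate block (0 to 33, with 33 and 32 without C57 or BALB 24 h replicate 1 and 20 without NOD basal replicate 1). For H3K4me3, 13 falls ran from 10 to 16, 0 rises were 3 with no filter (0 to 0), and the 1 limma call was 4 by DESeq2, 3 by edgeR, 3 with a filter before the fit and 28 with the replicate block (0 to 2).

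Over the 3 times in C57, 46 H3K27ac falls were 22 under median-ratio scaling (35 to 61), and 6 rises were 11 under median-ratio scaling and 3 within 10 kb or where the nearest start was a member's (5 to 9). The 18 limma calls were 8 by edgeR, 8 under median-ratio scaling and 48 with the replicate block (2 to 52, with 52 without 1 h replicate 1, 11 without 24 h replicate 2, 2 without either 6 h library, and 5 and 3 without basal replicates 1 and 2). For Pol II, 22 falls were 34 at 2-fold (18 to 25), and 3 rises were 5 with no filter, 10 at 2-fold, 8 under median-ratio scaling, 1 where the nearest start was a member's and 0 within 10 kb (0 to 12, with 12 without basal replicate 1, 0 without basal replicate 2 or 4 and 5 without 6 h replicate 2). The 1 Pol II limma call was 9 by DESeq2, 0 with a filter before the fit, 3 under median-ratio scaling and 13 with the replicate block (0 to 13, with 13 without basal replicate 1 and 0 without any other basal, 6 h or 24 h library). The 0 EGR2 calls were 0 with the replicate block (0 to 4, with 4 without 1 h replicate 2). The 0 calls between Egr2 genotypes at 24 h were 1 by edgeR, 1 with a filter before the fit, 2 under median-ratio scaling, 2 with a pseudocount of 5 and 3 with the replicate block (0 to 1). The 345 gained peaks were 136 in lists of equal length and 187 within 10 kb. The cause of these differences was not tested.

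Outside the Pol II comparisons with 3 pairs, the pairing rule could not be applied (correlations of -0.0728 to 0.492 over 36 comparisons). For H3K27ac at 24 h they were 0.47 in C57, 0.435 in BALB, 0.492 in NOD, 0.441 in PWK and 0.261 in SPRET. The Pol II values held to mark pairs were 0.109 to 0.469, so the H3K27ac fits without the block may leave out a pairing. With the block, limma calls of H3K27ac in C57 were 30 lower and 3 higher, those in NOD 21 lower and 2 higher, and BALB and PWK had 7 lower each and SPRET 2. The shares of all regions that the blocked fits of histone marks called are not given, so these counts cannot be set against the rest. In Pol II the block raised the calls over all regions too, in PWK from 0.281% to 3.82% lower. At the Tlr1 site the block gave limma adjusted p-values between genotypes of 0.0326 for H3K27ac, 0.0418 for PU.1 and 0.0136 for STAT6. Median-ratio scaling without the block gave limma adjusted p-values of 0.399, 0.167 and 0.997 in the same order. Over the 278 named region values no direction of a called value reversed. Of the limma results 114 gained a call, 146 lost it, and 108 without a call moved by more than the spread of the libraries. The other 3067 kept a call or, with none, moved no further than that spread. Of the fold rule results 71 gained a call, 82 lost it, 36 moved beyond the spread and 1692 did none of these. The study's depth leaves low regions, such as the Tlr5 promoter, at few tags, and groups of 2 libraries limit every test.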
